A study of Mus musculus with 4 samples.

Results

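The genes described here are 10 mast cell and basophil genes that encode no protease: the IgE receptor chains Fcer1a, Ms4a2 and Fcer1g, the interleukin-33 receptor Il1rl1, the amine genes Hdc, Tph1 and Slc18a2, the prostaglandin synthase Hpgds, the granule proteoglycan Srgn and the transcription factor Mitf. They were taken by name from a list, and all 10 were found among the 55401 gene models of each library. RNA-Seq was performed on 2 KO and 2 Control libraries of sorted mouse bone marrow cells, which GEO labels ltHSC and the study text calls HSPCs. KO mice carried Cpt1a fl/fl together with Vav1-Cre, a transgene active in blood cells of all lineages, so that Cpt1a, which carries long-chain fatty acids into mitochondria, was deleted in more than the stem cells. Control mice, labelled WT, carried the same floxed alleles without Cre. The study's mice were adults of both sexes, and the labels give neither age nor sex of these libraries. The labels do not say whether libraries with the same genotype came from separate animals, so the p-values below measure only the spread between these libraries.

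The study's sort enriched c-Kit+ cells with beads, removed cells that stained for Gr-1, CD11b, CD4, CD8, Ter119 or B220, and gated on stem cell markers. None of those lineage markers is specific to mast cells or basophils, which does not say whether such cells carry them. c-Kit, the stem cell factor receptor, is also a surface receptor of mast cells. The study's stem cell gate also required the surface protein EPCR. Whether mast cells or basophils passed the sort was not tested. The KO libraries held 34083159 and 33909781 counts, against 20589218 and 23291747 in the Control libraries. Cpt1a itself measured 11.5 and 19.2 TPM in KO, against 37.0 and 35.6 TPM in Control (log2 fold change -1.60, edgeR adjusted p = 0.00695, not called with effective length as an offset or with limma). TPM is RSEM's abundance, a level corrected for depth and for transcript length.

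Mast cells and basophils are granulocytes that bind IgE through a high-affinity receptor. Its α chain, encoded by Fcer1a, holds the antibody, its γ chain, encoded by Fcer1g, carries the signal and is shared with other Fc receptors, and its β chain, encoded by Ms4a2, amplifies the signal and is needed in rodents for the receptor to reach the surface. When antigen cross-links the bound IgE, the cells release histamine, serotonin, proteases and proteoglycan from granules and make lipid mediators such as prostaglandin D2. Mast cells mature in tissues and are rare in bone marrow, whereas basophils complete their maturation in the marrow.

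The promoters of the receptor genes are shown because these genes differed in how their libraries compared, and because Il1rl1 has a distal and a proximal start whose transcripts differ in length. Each is the 250 bases before a RefSeq transcript start on GRCm38.p6, read 5′ to 3′ on the strand of the gene, and the capitals mark GATA motifs on either strand, which begin with A or T, go on with GATA and end with A or G: AGATAA is one, TGATAG another. Fcer1a lies on the minus strand with its window at chr1:173227230-173227479, Ms4a2 on the minus strand at chr19:11623720-11623969, and Fcer1g on the minus strand at chr1:171234350-171234599. The Il1rl1 windows lie on the plus strand at chr1:40429320-40429569 for the distal start and chr1:40439379-40439628 for the proximal start.
Fcer1a: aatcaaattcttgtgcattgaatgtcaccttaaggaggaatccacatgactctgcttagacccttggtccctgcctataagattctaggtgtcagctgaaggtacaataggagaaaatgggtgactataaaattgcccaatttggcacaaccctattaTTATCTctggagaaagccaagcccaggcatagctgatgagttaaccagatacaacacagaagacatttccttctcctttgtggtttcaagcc
Ms4a2: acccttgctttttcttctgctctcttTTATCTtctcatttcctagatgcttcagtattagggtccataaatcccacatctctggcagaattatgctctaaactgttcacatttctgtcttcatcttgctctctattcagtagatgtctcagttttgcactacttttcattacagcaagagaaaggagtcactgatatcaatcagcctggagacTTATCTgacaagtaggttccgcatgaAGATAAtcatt
Fcer1g: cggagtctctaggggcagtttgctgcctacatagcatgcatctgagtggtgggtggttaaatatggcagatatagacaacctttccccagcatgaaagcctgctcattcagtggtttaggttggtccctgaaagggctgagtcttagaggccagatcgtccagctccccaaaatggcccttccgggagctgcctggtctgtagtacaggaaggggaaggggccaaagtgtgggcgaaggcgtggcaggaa
Il1rl1 distal: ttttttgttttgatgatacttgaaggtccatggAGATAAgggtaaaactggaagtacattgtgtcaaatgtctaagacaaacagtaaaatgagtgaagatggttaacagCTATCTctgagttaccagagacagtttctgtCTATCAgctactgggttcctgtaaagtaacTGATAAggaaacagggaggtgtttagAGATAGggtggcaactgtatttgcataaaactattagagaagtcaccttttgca
Il1rl1 proximal: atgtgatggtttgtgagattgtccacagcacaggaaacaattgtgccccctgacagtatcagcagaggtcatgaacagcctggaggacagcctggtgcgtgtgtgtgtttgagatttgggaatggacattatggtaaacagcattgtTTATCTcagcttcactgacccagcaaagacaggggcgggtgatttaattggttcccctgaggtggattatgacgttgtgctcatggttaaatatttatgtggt

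The Ms4a2 window held 3 GATA motifs, at 224, 37 and 11 bases before the start, and the Fcer1a window held 1, at 92 bases. The distal Il1rl1 window held 5 and the proximal window 1, while the Fcer1g window held none. The 10 genes have 15 starts in the table, and over the full window of 250 bases before to 50 after the start, 9 of them held a GATA motif (60%), in 7 of the 10 genes, against 29.8% of all 32851 promoters of the same length. The E box bound by MITF-type factors (CATGTG or CACGTG, both strands) was in 2 of the 15 windows, those of Fcer1a and Hpgds, against 20.4% of all promoters. The core of the PU.1 motif (GAGGAA, both strands) was in 4 of the 15, against 28.3%. These are matches of letters, and no binding was measured in these libraries.

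Of the 10 genes, none was called higher and none lower by edgeR, beside 0.451% of all 14635 tested genes called higher and 0.212% called lower (0.663% in either direction). All 10 passed the filter on low counts, Tph1 only through its KO counts. At an unadjusted p under 0.05, 2 were higher (Ms4a2 and Tph1) and 1 lower (Srgn), beside 5.81% higher and 4.61% lower of all genes (10.4% in either direction). DESeq2 called Ms4a2 alone, as higher, where it called 3.95% of the 15535 genes it tested higher and 3.24% lower, and limma called none. In TPM, 2 of the 10 had both KO libraries above both Control libraries (23.1% of all genes) and 1 had both below (16.8%). The median log2 fold change of the 10 was 0.16, against 0.01 over all genes tested. In bulk RNA a change in the number of cells of a type and a change in RNA per cell cannot be told apart.

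Ms4a2, the β chain of the IgE receptor (chr19:11615523-11623719, GRCm38), measured 13.3 and 13.6 TPM in KO, against 8.25 and 4.26 TPM in Control. Both KO libraries were above both Control libraries, and the KO pair lay far closer together than the Control pair. The fold change was 0.96 on the log2 scale (SE 0.36). The unadjusted p from edgeR was 0.0277, and the adjusted p of 0.422 over all genes did not pass the threshold of 0.05. DESeq2, the test named in the study's methods, gave the same fold change of 0.96 with an adjusted p of 0.0323, so the call for Ms4a2 turned on the tool. The study's own rule was unlike the one used here. It took a P value under 0.05 with a limit on the log2 fold change, and 0.96 falls just short of that limit. Its fold change was positive in all 13 settings tried, between 0.79 and 1.17.

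Fcer1a, the α chain (chr1:173221284-173227214), measured 3.93 and 7.08 TPM in KO, against 9.71 and 0 TPM in Control. The Control libraries thus held both the highest and the lowest value, with 97 reads in Control 1 and none in Control 2, and the KO libraries held 70 and 127 reads. At the depth of Control 2, 0 reads allow a level of up to 0.129 CPM (counts per 1000000 of the library's total, not scaled to length), by counting error only, against 4.71 CPM in Control 1. The log2 fold change was 0.31 (SE 1.77, adjusted p = 0.987). It was -0.69 without Control 2 and -0.20 without KO 2, so the direction rests on those libraries.

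Fcer1g, the γ chain (chr1:171229572-171234365), was the most abundant of the 3 chains at 35.0 and 41.9 TPM in KO, against 41.0 and 23.6 TPM in Control. The groups overlapped, and the log2 fold change of 0.21 (SE 0.41, adjusted p = 0.951) became -0.13 without Control 2. The ratio of Ms4a2 to Fcer1g in TPM, computed after these values were seen, was 0.380 and 0.325 in KO, against 0.201 and 0.180 in Control, while that of Fcer1a to Ms4a2 was 0.296 and 0.519 in KO, against 1.18 and 0 in Control.

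Il1rl1 encodes ST2, the receptor for the alarmin interleukin-33, and is a surface protein of mast cells, basophils and type 2 innate lymphoid cells. It measured 14.7 and 12.5 TPM in KO, against 17.2 and 4.05 TPM in Control. In TPM the KO libraries lay between the Control libraries. In CPM both KO libraries were above both Control libraries, at 37.2 and 41.3 against 31.2 and 14.1. The fold change from the counts was 0.79 on the log2 scale (SE 0.35, adjusted p = 0.491), and it was 0.35 once effective length was entered as an offset. Without Control 1 it was 1.45 with an adjusted p of 0.0134, past the threshold, and without Control 2 it was 0.34 with an adjusted p of 0.546.

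**Figure D1:**
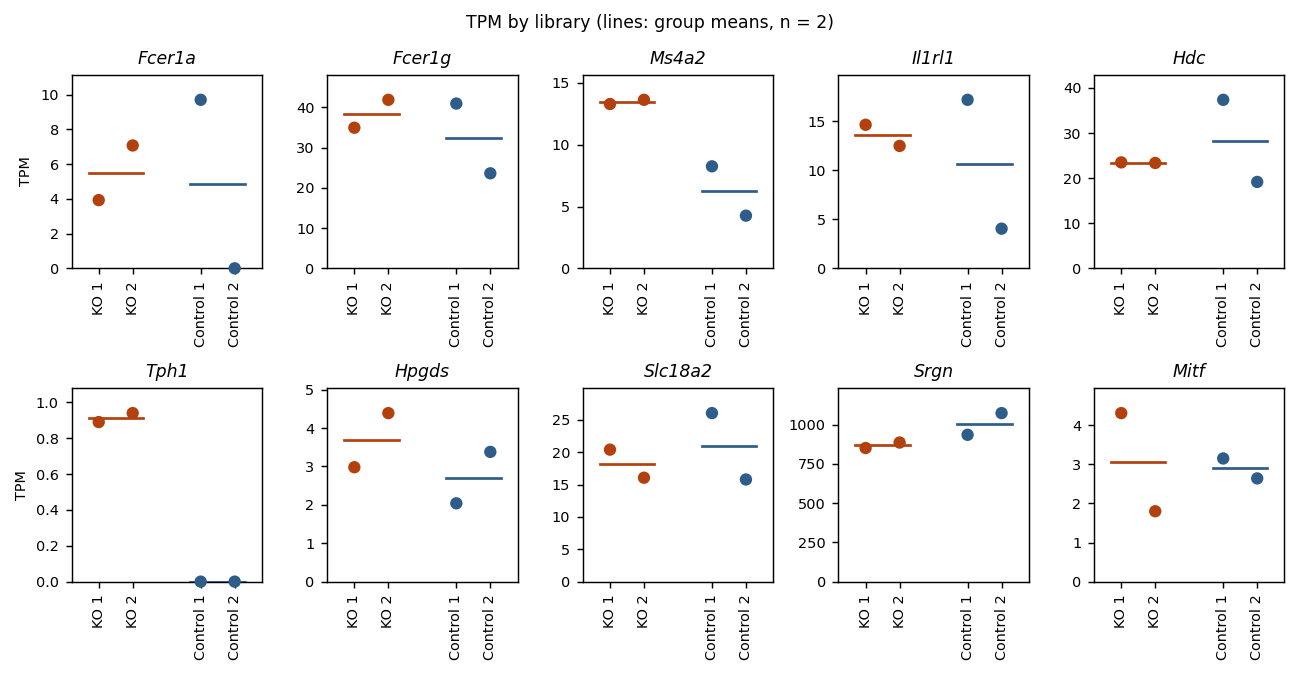
TPM of the 10 genes in each library, one panel a gene, with KO left of Control; points are libraries, lines are means of 2, and each axis starts at 0. Ms4a2 and Tph1 were higher in both KO libraries and Srgn lower, while Fcer1a, Il1rl1, Hdc and Slc18a2 had their highest value in Control 1.

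The 2 scales parted for Il1rl1 because its effective length differed between libraries. Effective length is the transcript length available to fragments, averaged over a gene's transcripts by their estimated abundance, so it moves when the estimated mix of transcripts moves. For Il1rl1 it was 3571 and 4591 bases in KO, against 2492 and 4791 bases in Control, a 1.92-fold range. The gene lies on chromosome 1 at 40429570 to 40465415 (GRCm38), and its 5 annotated transcripts, all coding, run from 375 to 5302 bases. In mouse, the long form encodes the membrane receptor and a shorter form a soluble decoy. Transcripts were not counted singly here, so the form behind the short value of Control 1 was not tested.

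Mitf, with 8 transcripts from several promoters, was the other gene whose effective length differed by more than 1.5 times, at 2634 and 4619 bases in KO and 3473 and 4619 bases in Control. These were 2 of the 10 genes, while 26.3% of all 14635 tested genes differed as much. Ms4a2 came next at a 1.47-fold range, with 1617 and 1510 bases in KO and 1449 and 2129 bases in Control. For a gene with 0 reads the value reflects no reads, as for Tph1 in Control and Fcer1a in Control 2. RSEM's posterior SD of the count was 0 for the 10 genes in every library, so no uncertain sharing of reads with other genes was recorded for them. The 3 gene models that overlap a member, each on the opposite strand, had 0 counts in all 4 libraries.

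**Figure D2:**
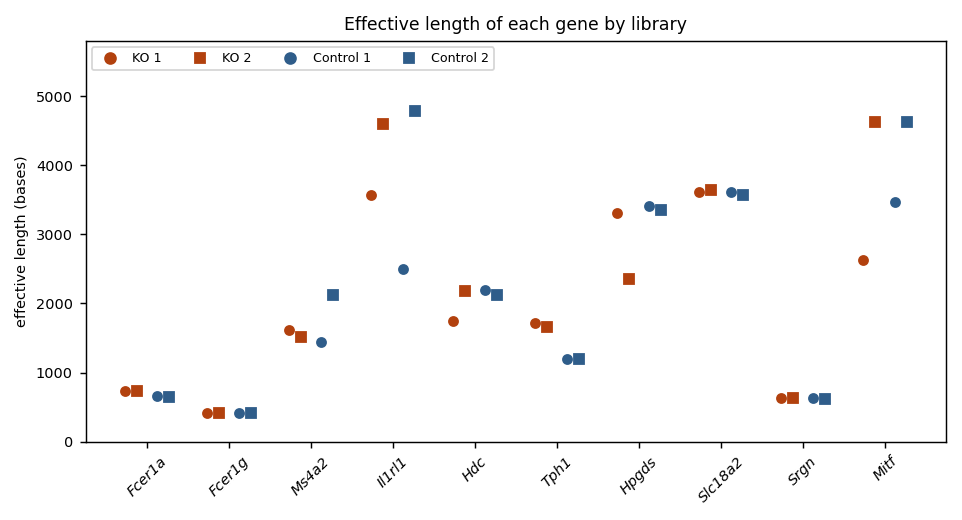
Effective length in bases (vertical axis, from 0) of each gene in each library, KO left of Control for each gene. Il1rl1 and Mitf spread by 1.92-fold and 1.75-fold, while Fcer1g, Slc18a2 and Srgn spread by at most 1.04-fold.

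The fold changes of the 3 amine genes had both signs. Hdc (chr2:126593667-126619299) makes histamine from histidine, and it measured 23.5 and 23.4 TPM in KO, against 37.4 and 19.2 TPM in Control. In TPM the KO values nearly coincided and fell inside the Control range. In CPM they were 29.1 and 36.7 in KO, against 59.8 and 29.7 in Control, so KO 1 lay just below Control 2. Effective length was 1743 and 2187 bases in KO. The log2 fold change from the counts was -0.45 (SE 0.32, edgeR adjusted p = 0.708). Without Control 1 the fold change was 0.13, and without Control 2 it was -0.86 with an adjusted p of 0.0804. The ratio of Hdc to Ms4a2 in TPM, also computed after the values were seen, was 1.77 and 1.71 in KO, against 4.53 and 4.50 in Control. In TPM, Control 1 exceeded Control 2 by 1.95-fold for Hdc and by 1.94-fold for Ms4a2, which left the ratio nearly equal in those libraries. In CPM, Control 1 exceeded Control 2 by 2.01-fold for Hdc and by 1.31-fold for Ms4a2. The effective length of Ms4a2 was 1449 and 2129 bases in those libraries, so the near match held in TPM only.

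Tph1, the first enzyme of serotonin synthesis outside neurons (chr7:46644641-46672537), was at 0.890 and 0.940 TPM in KO, against 0 and 0 TPM in Control. These are 37 and 38 reads in KO and none in Control, where 0 reads over both libraries allow up to 0.0684 CPM. Against that floor the KO level was at least 16.1-fold higher. The edgeR p of 0.0447 gave an adjusted p of 0.464, and the DESeq2 adjusted p was 0.0666, so neither tool called it at the adjusted threshold. By DESeq2 its log2 fold change, fitted against 0 Control reads, was 7.02 with an unadjusted p of 0.00539. Those values pass the study's own rule, a P value with a fold change limit. Of all tested genes, 2.59% had 0 counts in both Control libraries. Ddc, which makes serotonin from the product of Tph1, was at 0.50 and 1.76 TPM in KO and 0 in both Control libraries (adjusted p = 0.556), a gene named here after its values were seen.

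Slc18a2 (chr19:59260896-59296012) encodes VMAT2, which loads histamine and serotonin into granules. It measured 20.39 and 16.05 TPM in KO, against 26.03 and 15.78 TPM in Control, with overlapping groups (log2 fold change -0.22, SE 0.25, adjusted p = 0.877). The fold change was 0.18 without Control 1. The order of the Control libraries, with Control 1 the higher, was the same as for Hdc.

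Hpgds (chr6:65117293-65144908) makes prostaglandin D2 in mast cells and in megakaryocytes. It measured 2.98 and 4.39 TPM in KO, against 2.04 and 3.38 TPM in Control, again with overlap (log2 fold change 0.10, SE 0.48, adjusted p = 0.983). Without Control 1 the fold change was -0.21. Mitf, a factor needed for mast cell development in mice (chr6:97807052-98021349), measured 4.31 and 1.80 TPM in KO, against 3.15 and 2.64 TPM in Control. Its log2 fold change of -0.28 (SE 0.43, adjusted p = 0.926) was 0.05 with effective length as an offset.

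Srgn (chr10:62493833-62527451) encodes serglycin, the core protein that carries heparin or chondroitin chains and holds proteases and amines in granules. Many blood cells make it, stem and myeloid progenitor cells included. It was the most abundant gene of the 10 by far, at 851 and 886 TPM in KO, against 935 and 1073 TPM in Control. Both KO libraries were below both Control libraries. The log2 fold change was -0.24 (SE 0.10), and it was negative in all 13 settings. The unadjusted p from edgeR was 0.0460, its adjusted p 0.468, and the DESeq2 adjusted p 0.0773.

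The order by mean TPM was Srgn, Fcer1g, Hdc, Slc18a2, Il1rl1, Ms4a2 and Fcer1a in both groups, with Tph1 last, and Hpgds stood above Mitf in KO and below it in Control. In KO, Il1rl1 at 13.6 ± 1.53 TPM and Ms4a2 at 13.5 ± 0.240 TPM (SD, n = 2) did not differ beyond their spread. The KO values of Fcer1a overlapped those of Hpgds, and those of Hpgds overlapped those of Mitf, while the other neighbours in that order were apart. In Control, every gene between Srgn and Tph1 overlapped its neighbour in that order. The smallest p that exact permutation of 4 libraries can give a single gene is 0.333.

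Of the 10, 7 were higher in Control 1 than in Control 2 in TPM, against 49.8% of all genes tested, and 4 were higher in KO 1 than in KO 2. Whether 7 of so few genes departs from that share was not tested. Tph1 had no reads in either Control library, and Mitf went the other way in CPM (7.97 in Control 1, 8.89 in Control 2). Without Control 1 the median log2 fold change of the 10 was 0.42, and without Control 2 it was -0.14. Fcer1g, Hdc, Hpgds, Slc18a2 and Fcer1a each changed sign when a library was left out.

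**Figure D3:**
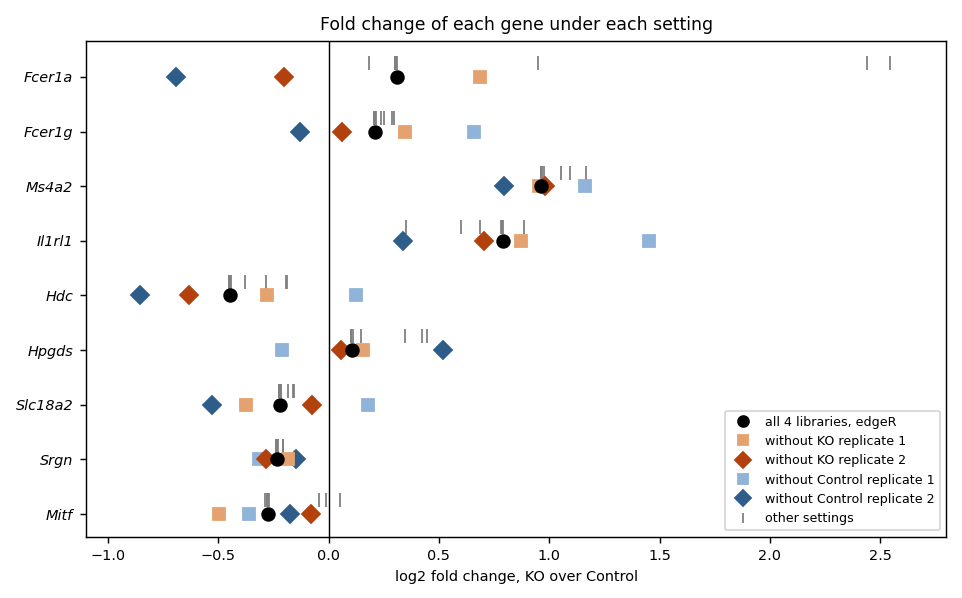
Log2 fold change, KO over Control (horizontal axis), of 9 genes with all libraries (black), with each library left out (coloured) and under the other settings (grey ticks). Tph1, with no Control reads, and Fcer1a without Control 1 are not drawn. Ms4a2 and Il1rl1 stayed above 0 and Srgn below 0, while Fcer1a, Fcer1g, Hdc, Hpgds, Slc18a2 and Mitf crossed 0.

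The granule proteases, which mast cells store on serglycin, are set beside the receptor and mediator genes. Of 14 proteases, 12 were tested, 5 passed the edgeR test as higher in KO and none as lower, beside 0.451% and 0.212% of all genes tested. Of the 14, 7 had 0 reads in both Control libraries (Cma1, Cma2, Mcpt1, Mcpt2, Tpsb2, Tpsab1 and Tpsg1), beside 2.59% of all genes tested, and Mcpt4 had 1 read. Those tested, all but Mcpt1, passed the filter on low counts only through KO and could only come out higher. At an unadjusted p under 0.05, 8 were higher and 1 lower, beside 5.81% and 4.61% of all genes tested. DESeq2 called 7 higher and 0 lower, beside 3.95% and 3.24%. The lower one was Ctsg, cathepsin G, a protease of neutrophil precursors and mast cells, at 352 and 492 TPM in KO, against 746 and 612 TPM in Control (log2 fold change -0.73, SE 0.17, adjusted p = 0.196). Ctsg passed as lower without the filter on low counts (adjusted p = 0.0442), without Control 2 (0.0153) and without KO 2 (0.0178). The study named proteases from these samples, so that count is not independent evidence of their direction. The chymases Cma1 (95.9 and 123 TPM in KO, 0 and 0 in Control, adjusted p = 0.000747) and Mcpt4 (81.6 and 95.5 TPM in KO, 0.0800 and 0 in Control, adjusted p = 0.000556) and the tryptase Tpsb2 (47.8 and 60.1 TPM in KO, 0 and 0 in Control, adjusted p = 0.00191) had at most 1 read in Control. Mcpt4 had 3645 reads in KO and 1 in Control, which is 2352 times as much per unit of depth (422 to 92940 by a 95% interval for counting error alone). With effective length as an offset 3 proteases passed (Cma1, Mcpt4 and Tpsb2), with limma on log2(TPM + 1) also 3, and with limma on log2(TPM + 0.1) none.

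Cpa3, a carboxypeptidase of mast cells, basophils and their progenitors, was present in both groups at 90.5 and 116 TPM in KO, against 32.2 and 18.8 TPM in Control (log2 fold change 1.99, SE 0.27, adjusted p = 0.0227). Gzmb, granzyme B, rose to 13.3 and 24.4 TPM in KO, against 1.53 and 2.21 TPM in Control (log2 fold change 3.29, SE 0.52, adjusted p = 0.0395), and its adjusted p was 0.0556 without KO 1 and 0.664 without KO 2. Which cells held the Gzmb reads was not tested. The other proteases tested did not pass. Among those, the basophil proteases Mcpt8 and Prss34 measured 45.5 and 29.4 TPM in KO against 17.3 and 17.8 TPM in Control (Mcpt8, adjusted p = 0.406), and 8.90 and 8.65 TPM in KO against 15.5 and 6.03 TPM in Control (Prss34, adjusted p = 0.936). Set on Ms4a2, Mcpt4 was 6.14 and 7.004 times as high in TPM in KO, against 0.00970 and 0 in Control, and Cpa3 was 6.81 and 8.54 times as high in KO, against 3.90 and 4.41 in Control.

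**Figure D4:**
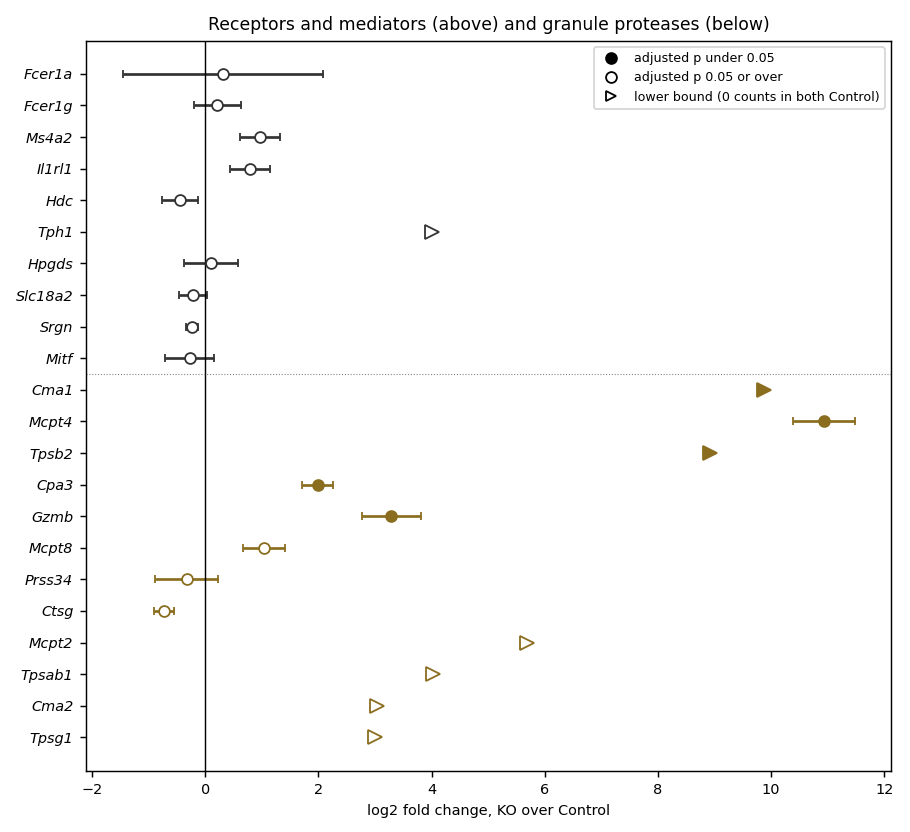
Log2 fold change, KO over Control, with SE, of the 10 genes above the dotted line and of the 12 tested proteases below it. Triangles are lower bounds for genes with 0 counts in both Control libraries, the Mcpt4 value is the fitted one and rests on 1 Control read, and filled symbols passed an edgeR adjusted p under 0.05. The filled symbols are all proteases (5 of 12).

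Around the receptor, 23 genes of IgE signalling were tested and none passed in either direction by edgeR. At an unadjusted p under 0.05, 3 were higher and 3 lower, and DESeq2 called 2 higher and 3 lower. Of all genes tested, 5.81% were higher and 4.61% lower at that p, and DESeq2 called 3.95% higher and 3.24% lower. Past the adjusted edgeR threshold the shares were 0.451% and 0.212%. The same shares apply to the other lists in this paragraph, and no list was tested as a set. Of 20 other mast cell and basophil receptors, 19 were tested and 1 passed as higher, the integrin gene Itga4, at 74.8 and 74.4 TPM in KO against 48.9 and 44.8 TPM in Control (log2 fold change 0.61, SE 0.09, adjusted p = 0.0359). At an unadjusted p under 0.05, 6 of these receptors were higher and 0 lower, and DESeq2 called 5 higher and 0 lower. Among the 6 were Mrgprb2 and Adora3, which had 0 reads in both Control libraries. They passed the filter on low counts only through KO and could only come out higher. Of the 20 receptors, 4 had 0 reads in both Control libraries (Mrgprb1, Mrgprb2, Adora3 and Hrh4), beside 2.59% of all genes tested. Itga4 is expressed by stem and progenitor cells as well. Itga4 lost the call with either KO library left out, with the length offset and with limma, and 2 of the receptors passed as higher without Control 1. Of 20 genes of amine, lipid and proteoglycan metabolism (18 tested), 17 cytokines (8 tested) and 20 transcription factors (19 tested), none passed by edgeR in the main fit. At an unadjusted p under 0.05, these lists had 1, 1 and 3 higher and 2, 2 and 2 lower, and DESeq2 called 1, 0 and 3 higher and 1, 1 and 2 lower. Limma called none of these genes. Without the filter on low counts, edgeR called 1 amine, lipid or proteoglycan gene lower, and 1 transcription factor in each direction. In that setting it called 111 genes higher and 85 lower over all genes. Leaving out a Control library also gave calls in these lists.

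Markers of other cells moved with these values in part. Of 12 mast cell markers, 11 were tested and 4 passed as higher (0.451% of all genes tested), the proteases Cma1, Mcpt4, Tpsb2 and Cpa3. Cma1, Tpsb2 and Mcpt4 passed the filter on low counts only through KO. Of the 12, 7 were at 0 in both Control libraries (Cma1, Tpsb2, Tpsab1, Mrgprb1, Mrgprb2, Mcpt1 and Mcpt2), beside 2.59% of all genes tested. The list summed to 715 and 807 TPM in KO, against 406 and 358 TPM in Control. The 4 proteases were counted above too, so neither these calls nor the sum is separate from their values there. Ms4a2 is on the mast cell list, and Kit and Gata2, which stem cells also express, are on it too. Kit measured 262 and 275 TPM in KO, against 253 and 232 TPM in Control, and Gata2 111 and 111 TPM against 112 and 104 TPM. Gata1, on the transcription factor list only, measured 28.6 and 27.6 TPM in KO, against 59.7 and 46.6 TPM in Control. Its log2 fold change was -0.99 (SE 0.19, edgeR adjusted p = 0.0931), short of the threshold. The 10 basophil markers, Ms4a2 and Fcer1a among them, summed to 126 and 114 TPM in KO, against 119 and 196 TPM in Control, and none was at 0 in both Control libraries. Most of the Control 2 sum was the chemokine gene Ccl3 (10.9 and 1.46 TPM in KO, 13.1 and 130 TPM in Control). The sums thus do not show how the other basophil markers compared between the groups. Of the 9 basophil markers tested, 4 had both KO libraries above both Control libraries in TPM (23.1% of all genes). Both KO libraries were below for 1 of them, Ccl3 (16.8% of all genes). The 9 eosinophil markers summed to 129 and 208 TPM in KO, against 238 and 77.0 TPM in Control. Most of that sum was Prg2, the eosinophil major basic protein (93.4 and 156 TPM in KO, 197 and 51.7 TPM in Control), and the other 8 markers summed to 35.8 and 51.4 TPM in KO, against 40.8 and 25.2 TPM in Control, with Il5ra at 0 in both Control libraries. Fcer1a had the order of the 4 libraries that Prg2 had, highest in Control 1, then KO 2, KO 1 and Control 2, and the other 8 markers together did not. None of the basophil or eosinophil markers passed the edgeR test. At an unadjusted p under 0.05, 2 and 1 were higher (5.81% of all genes tested), and DESeq2 called 2 and 1 higher (3.95%).

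The 12 neutrophil markers summed to 6080 and 6136 TPM in KO, against 11266 and 7678 TPM in Control, and 1 of them, Elane, passed as lower (350 and 387 TPM in KO, 1160 and 889 TPM in Control, log2 fold change -1.51, adjusted p = 0.00665). At an unadjusted p under 0.05, 8 of the 12 were lower, and 11 of the 12 fold changes were negative. Of all genes tested, 4.61% were lower at that p, 0.212% passed edgeR as lower and 3.24% passed DESeq2 as lower. The number that passed as lower was 5 with DESeq2, 3 without the filter, 2 with the replicate block, 3 without Control 1, 9 without Control 2, and 0 with the length offset or limma. Of the 10 markers of type 2 innate lymphoid cells, which also carry ST2, 5 were tested, with 3 fold changes positive and 2 negative. Klrg1, Il13, Areg and Il2ra were at 0 in all 4 libraries, and Il5 was at 0 in both Control libraries. The list summed to 34.2 and 52.0 TPM in KO, against 17.4 and 35.3 TPM in Control. Of the list, 1 gene passed as higher, beside 0.451% of all genes tested. It was Il7r, also a lymphoid progenitor gene and part of that sum (18.6 and 16.5 TPM in KO, 5.10 and 5.58 TPM in Control, log2 fold change 1.73, adjusted p = 0.0237). That call was lost in the same settings as that of Itga4. The 12 stem cell markers summed to 1067 and 1096 TPM in KO, against 914 and 1056 TPM in Control, and none passed. At an unadjusted p under 0.05, 1 was higher and 1 lower (5.81% and 4.61% of all genes tested), and DESeq2 called 1 lower (3.24%). The megakaryocyte markers, 12 in number, summed to 227 and 210 TPM in KO, against 270 and 255 TPM in Control, with Gp6 at 0 throughout, and the 12 monocyte markers to 327 and 298 TPM in KO, against 419 and 323 TPM in Control, with Cd209a at 0 throughout. The part of these cell types in the values of the 10 genes was not tested.

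**Figure D5:**
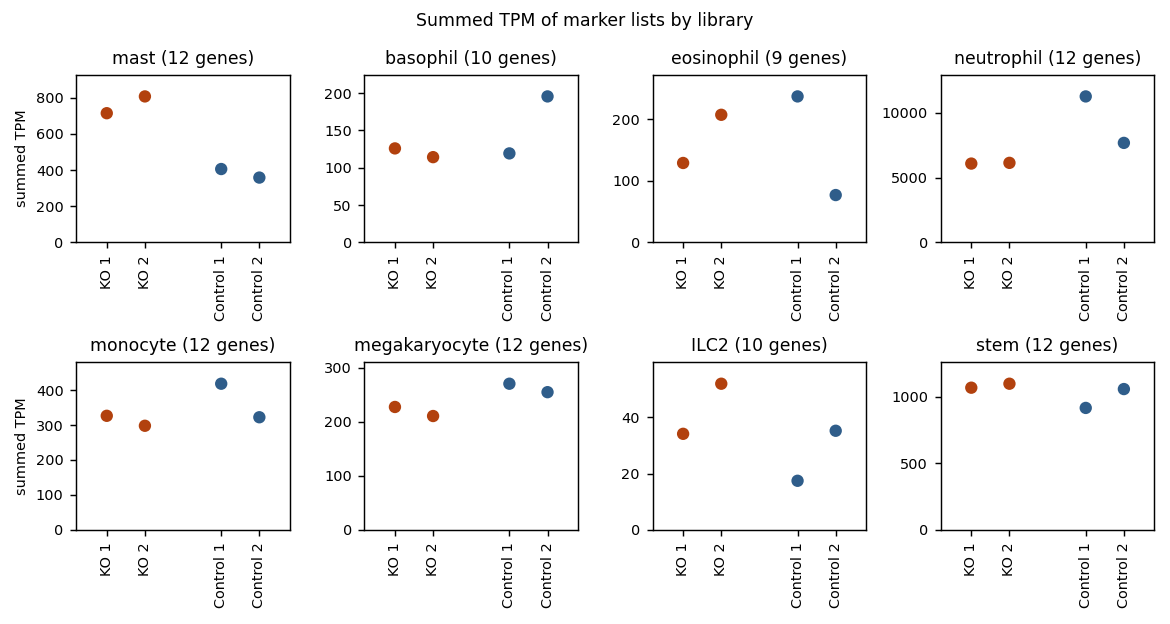
Summed TPM (vertical axes, from 0) of 8 marker lists in each library, KO left of Control. The mast cell sum, which includes the 4 proteases called higher, was higher in both KO libraries (715 and 807 against 406 and 358 TPM). The eosinophil sum, mostly Prg2, was highest in Control 1 and lowest in Control 2.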

How the data were processed

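RNA-Seq of polyadenylated RNA was analysed in 2 KO and 2 Control libraries, with groups and replicate numbers from the GEO labels. The labels name an RNeasy kit and a NEBNext Ultra II directional kit, and STAR, RSEM and mm10 are named in the submitters' processing notes. Versions, annotation and the strand setting of the counting: not given in the sources used here. The authors deposited, per gene, the expected count that RSEM estimates (not normalized, and not always whole), TPM, and RSEM's effective length and posterior mean count with its SD. GENCODE M21, on the same build, gave symbols and positions to 55141 of 55401 models, and RefSeq gave the promoters (all 10 genes matched). Protein sequences were not used here.

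Expected counts were rounded and tested in R 4.3.3 by edgeR 4.0.16, quasi-likelihood F test (two-sided, TMM, filterByExpr at a minimum count of 10, Benjamini-Hochberg over 14635 genes). Calls needed an adjusted p under 0.05. CPM is the count per 1000000 of a library's total. Fold bounds for genes at 0 in Control used a floor of 3 counts over both Control libraries. DESeq2 1.42.0 and limma 3.58.1 on log2(TPM + 1) or log2(TPM + 0.1) were alternatives, besides DESeq2 size factors in edgeR, no filter, an effective-length offset, posterior mean counts, a replicate block and each library left out. The fitting code was tested on simulated data. The text names all 10 genes, Cpt1a, those of the other lists past the adjusted threshold (at most 6 a list) and cell type markers at 0 throughout. Genes outside this rule, the protease examples that did not pass, Ddc, Prg2, Ccl3, the Kit, Gata1 and Gata2 values and the ratios were chosen after values were seen. The genes and lists were chosen with earlier results of these data known. Of all genes, 71.0% in KO and 73.0% in Control varied between libraries by more than counting noise, so each library was kept as a sample.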

Additional observations from a re-analysis of the deposited data

How the results depend on the processing

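No member passed the edgeR test as higher with all libraries, and 1 did with DESeq2 (Ms4a2) and 1 without Control replicate 1 (Il1rl1), so that count was 0 to 1 when a library was left out. None was lower under any of the 13 settings. The median log2 fold change of the members was -0.14 to 0.42 with a library left out. With a library left out, log2 fold changes turned sign within -0.69 to 9.46 for Fcer1a (negative without Control 2 and without KO 2, at -0.20; 9.46 is a fit against 0 reads), -0.13 to 0.66 for Fcer1g (negative without Control 2), and, turned without Control 1, -0.86 to 0.13 for Hdc, -0.21 to 0.52 for Hpgds and -0.53 to 0.18 for Slc18a2. Mitf turned to 0.052 with effective length as an offset. Over all genes, 66 higher and 31 lower calls became 613 and 503 with DESeq2, 111 and 85 without a filter, 3 and 1 with the length offset, 5 and 0 with limma on log2(TPM + 1), 0 and 0 with limma on log2(TPM + 0.1), and 24 to 238 and 18 to 144 with a library left out (an arm with 1 library is assumed to vary like the other). The cause was not tested, apart from fewer libraries. The replicate block gave 62 higher and 36 lower calls over all genes and 0 among the members. Deviations of same-numbered libraries correlated at -0.02 across genes, so the numbers were not taken to pair them. The Control depth limits Tph1 and Fcer1a, which had 0 reads in 2 and 1 Control libraries.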
